A study of Homo sapiens with 18 samples.

Results

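Accessible chromatin after cisplatin was compared between the ovarian carcinoma line A2780, which is sensitive to cisplatin, and Acis (labelled A2780cis), a resistant line derived from it. Both had been incubated with 200 µM cisplatin for 3 h. The comparison used the ATAC-seq peak list of treated Acis cells, with 27321 peaks, and that of treated A2780 cells, with 32159 peaks. These 59480 peaks are part of the 118944 peaks listed in 4 conditions, which also include untreated cells of each line. A peak that shared at least 1 bp with a peak of the other treated list was counted as shared, and all others as line-only. By this rule, 5549 peaks (20.3%) were Acis-only and 10682 peaks (33.2%) were A2780-only. Line-only peaks were then related to RNA-seq counts of nearby genes in 3 Acis cisplatin and 3 A2780 cisplatin libraries, and 3 untreated libraries of each line served as controls. Acis is a single derived line that was made from A2780 by long exposure to rising doses of cisplatin and was kept on 1 µM cisplatin every 3 passages, so differences between the lines hold for this pair of lines. A2780 cells carry functional p53.

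ATAC-seq marks open DNA by the insertion of a transposase, and peaks are regions where insertions pile up over the local background. Open regions at gene starts are promoters where transcription can begin. Open regions elsewhere include enhancers, which hold binding sites of transcription factors and differ more between cell types than promoters do. An open promoter does not by itself show that the gene is transcribed, and a gene can be transcribed from a promoter whose peak was not listed. Cisplatin binds purine bases and forms crosslinks in DNA, which nucleotide excision repair removes.

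The sequences of 6 line-only peaks near genes described below are shown because, among the line-only peaks of the genes named for their promoter or distal peaks, they are the strongest whose summit window overlapped no annotated exon, 3 for each line. Each runs 5′ to 3′ on the plus strand of hg38 over 200 bases around the summit, the position of the highest signal. Capitals mark the letters CCAAT or their complement ATTGG, bound by NFY, and TGANTCA, bound by AP-1 factors. The first lies in an intron of CBLN2 at chr18:72563723-72563922, the second between genes upstream of MMP3 at chr11:102851382-102851581, and the third upstream of TYRP1 at chr9:12681816-12682015. All 3 were Acis-only.
CBLN2: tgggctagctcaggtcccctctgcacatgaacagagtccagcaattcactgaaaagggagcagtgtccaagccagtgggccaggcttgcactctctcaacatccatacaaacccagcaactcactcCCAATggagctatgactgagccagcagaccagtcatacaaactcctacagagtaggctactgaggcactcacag
MMP3: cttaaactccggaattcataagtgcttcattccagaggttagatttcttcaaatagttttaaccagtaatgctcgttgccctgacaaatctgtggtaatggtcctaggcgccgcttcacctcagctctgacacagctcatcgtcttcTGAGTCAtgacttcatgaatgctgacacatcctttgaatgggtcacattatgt
TYRP1: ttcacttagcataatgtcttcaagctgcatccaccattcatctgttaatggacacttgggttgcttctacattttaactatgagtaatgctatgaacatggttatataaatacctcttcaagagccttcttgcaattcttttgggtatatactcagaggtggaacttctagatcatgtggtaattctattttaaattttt
The A2780-only windows lie in the promoter windows, 1 kb either side of the gene start, of UCP2 (chr11:73983159-73983358), NID2 (chr14:52069072-52069271) and GDF15 (chr19:18374355-18374554).
UCP2: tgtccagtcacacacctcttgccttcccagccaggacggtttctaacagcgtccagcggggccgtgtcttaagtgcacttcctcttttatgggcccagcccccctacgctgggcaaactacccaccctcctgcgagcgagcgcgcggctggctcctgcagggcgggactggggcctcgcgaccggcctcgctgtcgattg
NID2: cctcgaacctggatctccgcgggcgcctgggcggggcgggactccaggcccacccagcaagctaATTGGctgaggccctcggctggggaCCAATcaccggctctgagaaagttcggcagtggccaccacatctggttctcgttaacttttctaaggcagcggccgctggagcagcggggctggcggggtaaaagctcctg
GDF15: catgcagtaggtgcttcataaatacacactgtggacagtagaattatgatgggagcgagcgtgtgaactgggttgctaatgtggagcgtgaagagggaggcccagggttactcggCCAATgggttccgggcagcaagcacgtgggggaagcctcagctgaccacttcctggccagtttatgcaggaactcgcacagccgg
Their peaks had -log10 q-values of 307 (CBLN2), 303 (MMP3), 277 (TYRP1), 159 (UCP2), 99.9 (NID2) and 99.2 (GDF15), where the q-value is the lowest false discovery rate at which the peak caller would list the peak. The MMP3 window held 1 AP-1 sequence and no CCAAT sequence, the NID2 window held 2 CCAAT sequences, and the TYRP1 and UCP2 windows held none of either.

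Line-only peaks were weaker than shared ones in both lines. Acis-only peaks had a median -log10 q of 20.6, with 8.16 and 74.0 as the first and last decile, against a median of 50.9 for the shared Acis peaks. A2780-only peaks had a median of 15.3, with deciles of 7.37 and 36.3, against 55.1 for the shared A2780 peaks. Median fold enrichment over the local background was 6.90 in Acis-only and 12.4 in shared Acis peaks, and 6.23 in A2780-only and 10.6 in shared A2780 peaks. Among the peaks of the A2780 list in its lowest quartile of -log10 q, 74.9% were A2780-only, and in its highest quartile 1.39% were. In the Acis list these shares were 39.9% and 4.69%, so strong line-only peaks took a larger share of the Acis list, with 320 line-only peaks in the highest quartile against 112 in A2780. The strongest Acis-only peak reached a -log10 q of 749 and the strongest A2780-only peak 472.

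**Figure D1:**
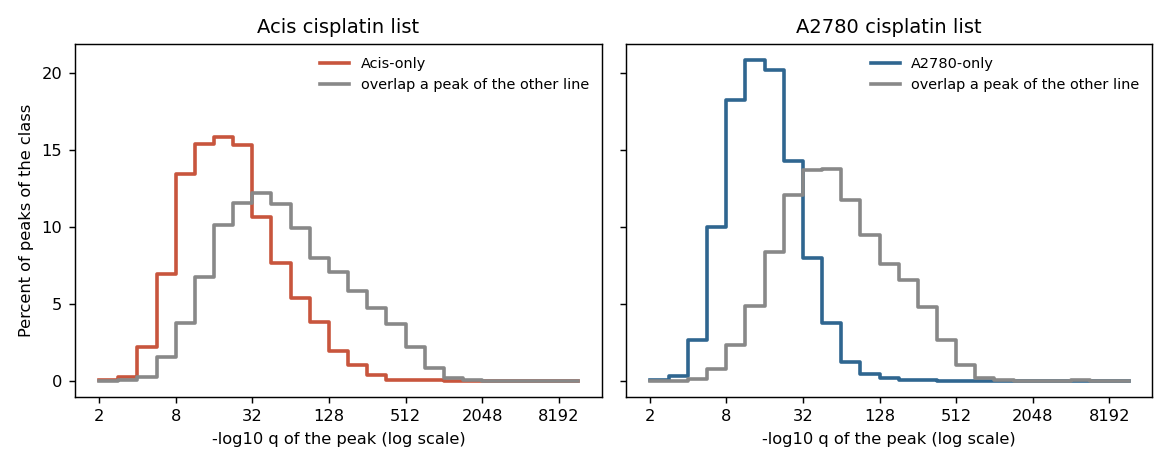
Distribution of peak strength (-log10 q) for line-only and shared peaks of the Acis cisplatin and A2780 cisplatin lists. Line-only peaks lie to the left of shared ones in both lines, with medians of 20.6 against 50.9 in Acis and 15.3 against 55.1 in A2780.

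Each list was deposited as 1 set of peaks made from 2 replicates, so peaks had no replicate error and were not tested. The study's methods give only a lower limit for the reads of each ATAC-seq sample, so the depth behind each list is not known, and a weak peak may be missing from the other list at the threshold of the caller. In the shared peaks, which could show a general difference in signal, the log2 ratio of Acis to A2780 fold enrichment had a median of 0.25 and deciles of -0.25 and 0.68. The overlap rule was seldom close to its limit. Only 5 Acis peaks and 4 A2780 peaks were shared through 50 bp or less, and 1 line-only peak of each list lay within 50 bp of a peak of the other. When the 20000 strongest peaks of each list were compared, A2780-only peaks numbered 4332 and Acis-only peaks 4176, so the excess of A2780-only peaks was smaller at equal list length.

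Line-only peaks lay away from gene starts more often than shared ones. A promoter window, 1 kb either side of an annotated gene start, held 763 (13.8%) of the Acis-only peaks, 2543 (45.8%) lay in introns, 1889 (34.0%) between genes and 354 (6.38%) in exons. Of the A2780-only peaks, 2258 (21.1%) lay in promoter windows, 4279 (40.1%) in introns, 3257 (30.5%) between genes and 888 (8.31%) in exons. Shared peaks lay in promoter windows in 48.2% of cases in Acis and 47.8% in A2780. Acis-only peaks were also narrower, with a median width of 422 bp against 526 bp for shared ones, and A2780-only peaks had a median width of 473 bp against 635 bp.

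Many line-only peaks of treated cells were already listed in untreated cells of the same line. Of the 5549 Acis-only peaks, 2224 (40.1%) had a counterpart in the Acis control list alone, 1122 (20.2%) in both control lists, 629 (11.3%) in the A2780 control list alone and 1574 (28.4%) in neither. Of the 10682 A2780-only peaks, 4797 (44.9%) overlapped the A2780 control list alone, 1084 (10.1%) both control lists, 345 (3.23%) the Acis control list alone and 4456 (41.7%) no control peak. The peaks found in neither control list were the weakest, with a median -log10 q of 12.3 in Acis-only and 12 in A2780-only peaks. Those in the control list of their own line alone had medians of 28.9 and 18.4. The control lists came from 3 replicates and the cisplatin lists from 2, and a peak had to be found in every replicate, so the lists differ in how strict they are.

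The alignment allowed up to 10 positions per read, so sequences with several copies in the genome could add signal at each copy. A summit window was called multi-copy when the median number of genome copies of its 24-mers was at least 2. This held for 858 (15.5%) of the Acis-only and 1818 (17.0%) of the A2780-only peaks, and for 11.4% and 11.5% of the shared peaks of the 2 lists. All 6 windows shown above had a median of 1 copy.

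The sequence of the line-only windows differed between the lines in base composition and in short motifs, given here as a description. The 200-base windows had a median GC content of 48.0% in Acis-only and 54.5% in A2780-only peaks, and 61.5% in shared peaks of either list. The NFI half-site TTGGCA was found on either strand in 13.6% of Acis-only and 8.73% of A2780-only windows, in 7.84% and 7.55% of the shared windows of the Acis and A2780 lists, and in 9.82% and 9.45% of windows 2 kb downstream of the line-only summits. The letters ATTGGCA hold both this half-site and the complement of CCAAT, so these motifs can overlap. The AP-1 sequence TGANTCA was found in 7.79% of Acis-only and 6.05% of A2780-only windows, against 5.90% and 5.37% in the downstream windows. GATA sites (AGATAAG) were found in 2.89% of Acis-only and 1.76% of A2780-only windows, against 2.98% and 2.34% downstream.

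Over all line-only windows, CCAAT had the largest difference in percentage points between the lines of the motifs searched, with 25.4% of Acis-only and 20.5% of A2780-only windows. Its shares were as high in the windows downstream, at 26.3% and 23%. In the other direction, the core of the site of CTCF (AGGGGGC), a factor that anchors chromatin loops, was found in 7.74% of Acis-only and 11.5% of A2780-only windows, against 2.29% and 2.94% downstream and 14.6% and 14% in shared windows. The E-box CAGCTG, read by bHLH factors, was found in 10.6% and 14%. These differences were of like size outside promoter windows, where the NFI half-site was found in 14.4% and 9.31% and the CTCF core in 6.59% and 11.1%. There CCAAT was found in 25.8% and 21.5%, a smaller difference than those of the NFI half-site and the CTCF core.

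RNA-seq counted between 4460460 and 4720732 reads on genes in the 6 treated libraries and between 4130644 and 5072216 in all 12. Values below are counts scaled to the mean library size, here called normalized counts. Genes were tested with the quasi-likelihood test of edgeR across all 12 libraries and were called where the adjusted p-value was below 0.05 and the log2 fold change was 1 or more in either direction, with positive values for higher in Acis. Of 15760 tested genes, 1148 (7.28%) had higher counts in the Acis cisplatin than in the A2780 cisplatin libraries and 1883 (11.9%) had lower counts. Per the study's methods, the replicates were wells of each condition seeded and treated in triplicate, so p-values measure the spread between wells, and in 7 of 12 replicate pairs this spread was below the counting noise. Of 7 epithelial markers, EPCAM had 2 and 13 counts over the 3 treated libraries of Acis and A2780, and 2 were tested, KRT8 and KRT18. These went in opposite directions. KRT18 was higher in Acis, with means of 147 and 35.4 normalized counts in Acis and A2780, and KRT8 was lower, with 4.58 and 17.3. Of 7 markers of Müllerian and ovarian carcinoma cells, only MECOM was in the table, with 3 and 11 counts, so these did not mark either line. Of 5 mesenchymal markers, VIM had means of 1791 and 1841 normalized counts in Acis and A2780 and ZEB1 had 521 and 534, while CDH2, with 49.3 and 379, and SNAI2, with 123 and 450, were lower in Acis, and FN1 had 4 and 8 counts. Of 6 fibroblast markers, all tested, 5 were lower in Acis and 1, COL3A1, was higher. No marker of leukocytes passed the filter on low counts, and no marker of endothelial cells was in the table. In such bulk libraries, fewer cells that express a gene and less RNA per cell cannot be told apart.

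Genes with a line-only peak at their start were more often higher in the line that had the peak. An Acis-only promoter was defined as a promoter window with an Acis-only peak and no A2780 peak, and an A2780-only promoter as the reverse. Of 419 genes with an Acis-only promoter, 321 were tested, and 112 (34.9%) were higher in Acis against 7.28% of all tested genes, while 23 (7.17%) were lower against 11.9%. Of 1134 genes with an A2780-only promoter, 811 were tested, and 325 (40.1%) were lower in Acis, while 55 (6.78%) were higher. The 10202 tested genes with peaks of both lines were higher in 4.76% and lower in 7.55%, and the 4316 with no peak of either line in 11.2% and 17.4%. A further 58 tested genes had windows with mixed peaks, of which 4 were higher and 9 lower.

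The median log2 fold change was 0.48 for the Acis-only promoters, with quartiles of -0.08 and 2.07, and -0.45 for the A2780-only promoters, with quartiles of -3.73 and 0.10. It was 0.01 for genes with both peaks and -0.00 for all tested genes. The medians of the line-only classes varied little between libraries. Recomputed with each library of one line against the mean of the other, they had SDs of at most 0.06 and 0.05 (n = 3). Most of the tested genes with a line-only promoter were not called, 186 of 321 and 431 of 811. Genes that failed the filter were counted too. Over all 419 genes with an Acis-only promoter, the mean count was higher in Acis for 296 (70.6%), and over all 1134 with an A2780-only promoter it was lower in Acis for 799 (70.5%), while over all 23513 genes with a position it was higher for 46.7% and lower for 53.2%.

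**Figure D2:**
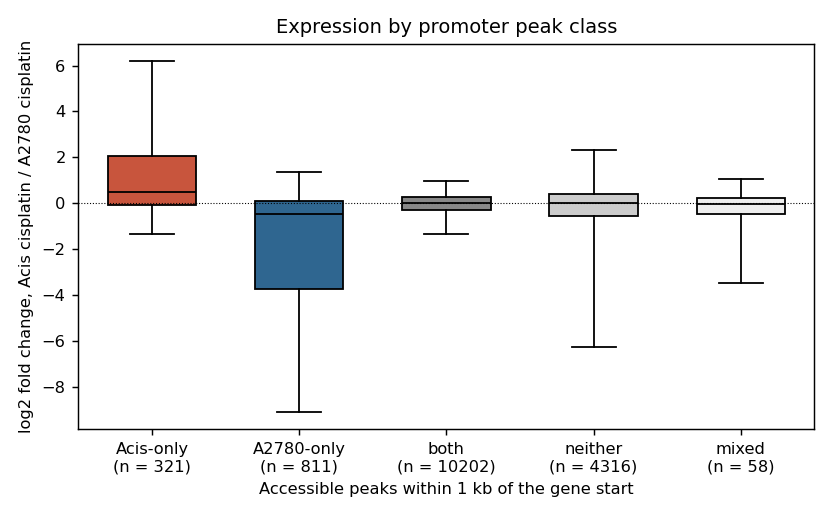
Log2 fold change of tested genes between Acis cisplatin and A2780 cisplatin libraries by the peaks in their promoter window, as boxes from the first to the third quartile with the median as a line and whiskers at the 5th and 95th percentiles. The box of the Acis-only promoters reaches up to 2.07 around a median of 0.48 and that of the A2780-only promoters down to -3.73 around a median of -0.45, while genes with both peaks lie close to 0.

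These shares depended little on how the window was drawn. The median log2 fold changes of the line-only classes moved more under the alternatives, as given in the closing section. The share of Acis-only promoters called higher was 31.1% with a window of 500 bp and 37.0% with 5 kb, and 40.7% when all annotated transcript starts were used in place of the gene start. For A2780-only promoters called lower they were 40.3%, 41.2% and 44.4%. With only genes of at least 50 counts on average, 74 of 224 (33.0%) and 160 of 512 (31.3%) were called, against 5.36% and 5.85% of all such genes. Where the window also held no peak of the control list of the other line, 90 of 187 genes (48.1%) were higher and 308 of 706 (43.6%) were lower.

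Named genes were chosen among those called higher, with at least 100 normalized counts and libraries of the lines that did not overlap. Of these, the Acis-only promoters with the strongest peaks were those of MMP3, COL12A1, NKX2-5, TYRP1, EPIC1, COL11A1, HMX1 and TNFRSF19. The first was MMP3 (ENSG00000149968), a secreted protease that cleaves matrix proteins, whose promoter peak at chr11:102843177-102843834 had a -log10 q of 266. MMP3 had 1287, 1307 and 1299 normalized counts in the Acis cisplatin libraries and 368, 400 and 351 in the A2780 cisplatin libraries. This gave a log2 fold change of 1.80 ± 0.04 (SE, adjusted p = 2.58e-23, edgeR). COL12A1 (ENSG00000111799), a fibril-associated collagen, had 4215, 4293 and 4362 normalized counts in Acis and 39.6, 27.2 and 34.5 in A2780, and its peak at chr6:75205885-75206557 had a -log10 q of 206. Its log2 fold change of 6.98 ± 0.06 (SE, adjusted p = 3.86e-33, edgeR) was the largest positive one among the collagens of the list described below. COL11A1 (ENSG00000060718), a fibrillar collagen of cartilage that is also made by tumour stroma, had 3173, 3204 and 3297 against 168, 158 and 184, a log2 fold change of 4.25 ± 0.05 (SE, adjusted p = 1.64e-30, edgeR). Besides its promoter peak, with a -log10 q of 149, 6 distal Acis-only peaks were assigned to COL11A1.

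Both homeobox genes among these 8 were low in A2780. NKX2-5 (ENSG00000183072), which directs heart development, had 278, 260 and 294 normalized counts in Acis and 24.5, 10.7 and 17.8 in A2780, a log2 fold change of 3.96 ± 0.15 (SE, adjusted p = 1.08e-18, edgeR). HMX1 (ENSG00000215612), a homeobox gene of eye and ear development, had 151, 147 and 132 in Acis and 1 count in each A2780 library, a ratio of 149 (exact 95% interval of 50.5 to 724 for counting error). The promoter peaks of NKX2-5 and HMX1 had -log10 q-values of 201 and 112.

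TYRP1 (ENSG00000107165), an enzyme of melanin synthesis, had 934, 919 and 910 normalized counts in Acis and 198, 226 and 224 in A2780, a log2 fold change of 2.09 ± 0.05 (SE, adjusted p = 3.64e-23, edgeR). Its promoter peak (-log10 q of 189) overlapped a peak of the A2780 control list, and 12 distal Acis-only peaks were assigned to it. TNFRSF19 (ENSG00000127863), a receptor of the tumour necrosis factor family, had 1235, 1216 and 1221 in Acis and 186, 197 and 197 in A2780, a log2 fold change of 2.66 ± 0.05 (SE, adjusted p = 1.74e-25, edgeR). With all transcript starts considered, TYRP1 and TNFRSF19 had peaks of both lines at some start. The lncRNA gene EPIC1 (ENSG00000224271) had 136, 133 and 124 in Acis and 0.942, 1.94 and 2.96 in A2780. In all 8 genes the promoter peak was also listed in untreated Acis cells.

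**Figure D3:**
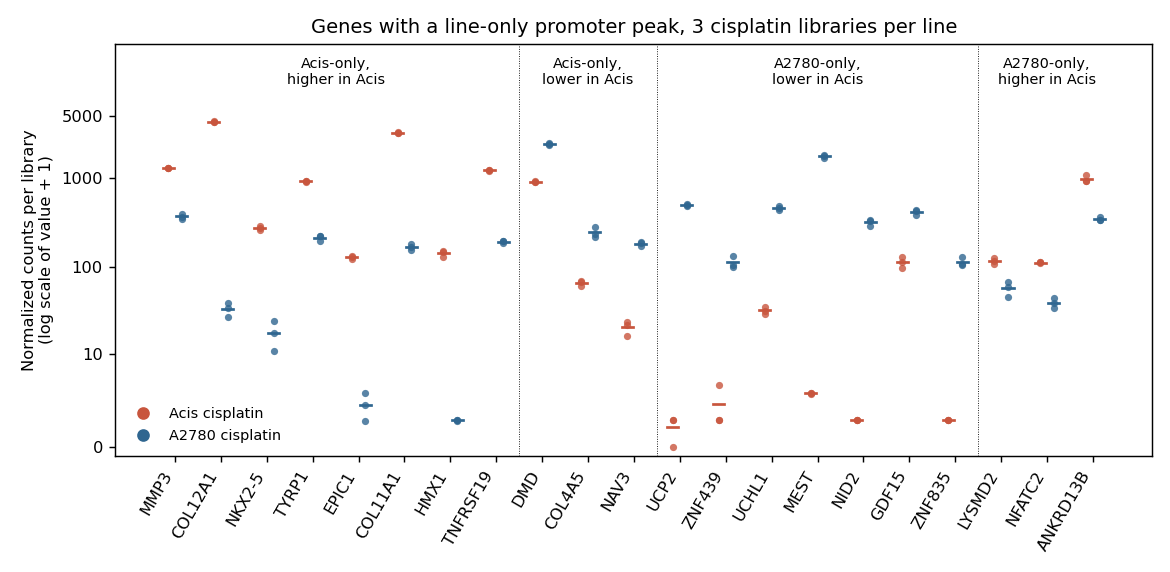
Normalized counts (log scale) of the named genes with a line-only promoter peak in each cisplatin library, with Acis and A2780 libraries in different colours and a short line at the mean of each group. The 3 libraries of each line lie close together. The genes were chosen so that the libraries of the lines do not overlap.

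The same choice was made for A2780-only promoters, among genes called lower in Acis with libraries that did not overlap. Of the 8 genes with the strongest peaks, 7 are described, and several of them were close to 0 in Acis. UCP2 (ENSG00000175567), a carrier protein of the mitochondrial inner membrane, had 494, 504 and 516 normalized counts in A2780 cisplatin libraries and 2 counts over the 3 Acis libraries. This is a ratio of 773 (exact 95% interval of 213 to 6385 for counting error), and its peak at chr11:73982495-73983746 had a -log10 q of 159. MEST (ENSG00000106484), an imprinted gene of the hydrolase fold family, had 1688, 1825 and 1755 in A2780 and 2.89, 2.97 and 2.96 in Acis, a log2 fold change of -9.16 ± 0.12 (SE, adjusted p = 8.95e-29, edgeR). NID2 (ENSG00000087303), a nidogen of the basement membrane, had 340, 295 and 328 in A2780 and 3 counts in Acis, a ratio of 328 (exact 95% interval of 112 to 1591).

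UCHL1 (ENSG00000154277), a ubiquitin hydrolase of neurons, had 437, 486 and 465 normalized counts in A2780 and 31.8, 29.7 and 35.5 in Acis, a log2 fold change of -3.83 ± 0.09 (SE, adjusted p = 3.32e-23, edgeR). GDF15 (ENSG00000130513), a stress-induced cytokine and p53 target, had 446, 386 and 425 in A2780 and 132, 97.9 and 115 in Acis, a log2 fold change of -1.86 ± 0.08 (SE, adjusted p = 4.86e-17, edgeR). With all transcript starts considered, GDF15 had peaks of both lines at some start. The zinc finger genes ZNF439 and ZNF835, whose family members act largely as repressors, had log2 fold changes of -5.77 and -6.72. All 7 peaks were also listed in untreated A2780 cells and none in untreated Acis cells.

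A line-only promoter did not always go with higher expression in its line. Of the tested genes with an Acis-only promoter, 23 (7.17%) were lower in Acis, against 11.9% of all tested genes. With an A2780-only promoter, 55 (6.78%) were higher, against 7.28%. Genes to name were chosen among called genes whose libraries did not overlap and whose higher group had a mean of 100 normalized counts or more. There, 67 genes with an Acis-only promoter were higher in Acis and 8 were lower, and 143 with an A2780-only promoter were lower and 16 were higher. The share of all tested genes passing these filters is not given here, so these counts only describe the choice. Of the 8 genes lower in Acis, the 3 with the strongest peaks were DMD, COL4A5 and NAV3. DMD, which encodes dystrophin, had 923, 912 and 914 normalized counts in Acis and 2350, 2490 and 2432 in A2780, a log2 fold change of -1.40 ± 0.03 (SE, adjusted p = 1.59e-23, edgeR), although its Acis-only promoter peak had a -log10 q of 59.0 and 10 distal Acis-only peaks were assigned to it. DMD has many promoters, and with all transcript starts considered it had peaks of both lines. A group of 6 A2780-only peaks also lay within 50 kb of DMD, at chrX:31331690-31366347. COL4A5, a basement membrane collagen, had 68.4, 61.3 and 70.0 in Acis and 286, 220 and 237 in A2780. NAV3, a neuron navigator, had 16.4, 23.7 and 21.7 against 186, 175 and 192, and its peak overlapped a peak of the A2780 control list and none of the Acis control list.

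In the other direction, ANKRD13B had 937, 921 and 1084 normalized counts in Acis and 369, 339 and 341 in A2780, a log2 fold change of 1.48 ± 0.06 (SE, adjusted p = 8.5e-18, edgeR). NFATC2, a transcription factor of calcium signalling, had 114, 111 and 114 against 34.8, 39.9 and 44.4. LYSMD2 had 126, 110 and 116 against 67.8, 60.3 and 46.4, and its log2 fold change of 1.01 was close to the threshold. The A2780-only peaks of these 3 genes had -log10 q-values of 15.1, 21.1 and 29.2, against a median of 15.3 for all A2780-only peaks. ANKRD13B and LYSMD2 also had peaks of both lines with all transcript starts considered.

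Most line-only peaks were distal, that is, in no promoter window of a gene in the RNA-seq counts. Some of these lay in promoter windows of annotated genes outside those counts. Distal peaks were assigned to the nearest start of a tested gene within 100 kb of the summit. Of 4913 distal Acis-only peaks, 2725 were assigned to 1547 genes, and 5392 of 8810 distal A2780-only peaks were assigned to 3837 genes. The others had no tested gene within reach. The share of called genes differed with the number of peaks. Of the 811 genes with 1 distal Acis-only peak and no A2780-only one, 92 (11.3%) were higher in Acis, of the 84 genes with 2 peaks 28 (33.3%), of the 30 genes with 3 to 4 peaks 9 (30.0%) and of the 58 genes with 5 or more 41 (70.7%). Genes with no distal line-only peak were higher in 6.36% of 10888 cases. The median log2 fold change was 0.07, 0.47, 0.60 and 1.56 in these groups and -0.00 without a peak.

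For A2780-only peaks, 338 of 2493 genes with 1 distal peak (13.6%) were lower in Acis, 116 of 564 with 2 (20.6%), 59 of 171 with 3 to 4 (34.5%) and 27 of 45 with 5 or more (60.0%), against 10.7% of the genes without. Their medians were -0.01, -0.07, -0.38 and -2.78. None of the 45 genes with 5 or more was called higher by edgeR or DESeq2, although 4 were higher at an unadjusted p-value under 0.05. Over all genes with any number of distal peaks of 1 line the median was 0.11 for Acis and -0.04 for A2780. With at least 50 counts on average, the latter was 0.02. Another 564 genes had distal peaks of both lines, and 85 of these (15.1%) were higher and 85 (15.1%) lower. Both shares were above the 6.36% and 10.7% of genes without a distal line-only peak.

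**Figure D4:**
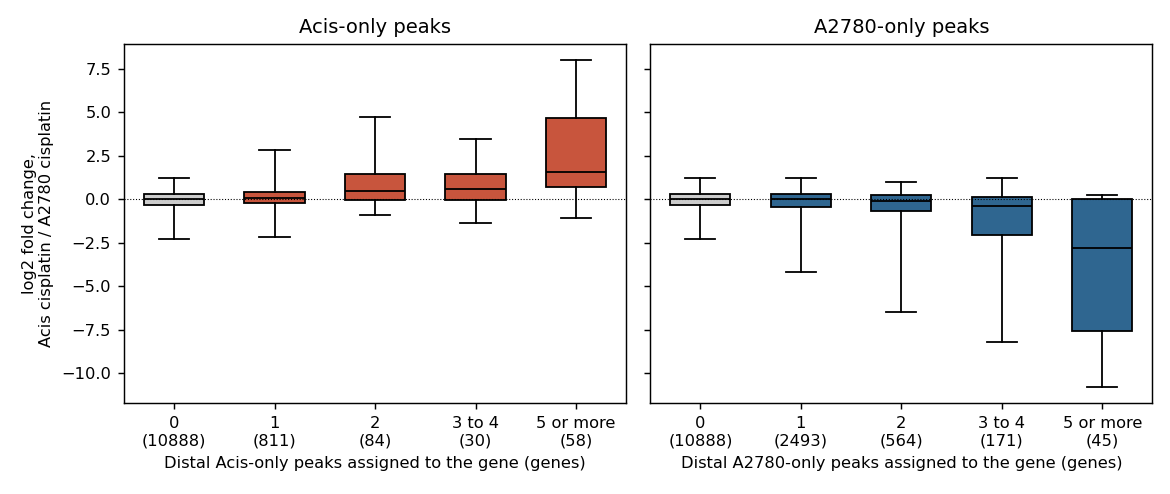
Log2 fold change of tested genes between Acis cisplatin and A2780 cisplatin libraries by the number of distal line-only peaks assigned to the gene, as boxes from the first to the third quartile with the median as a line, whiskers at the 5th and 95th percentiles and the number of genes in brackets. The medians are 0.07 with 1 and 1.56 with 5 or more Acis-only peaks, and -0.01 with 1 and -2.78 with 5 or more A2780-only peaks.

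CD36 (ENSG00000135218), which encodes a fatty acid translocase and scavenger receptor, had the most distal Acis-only peaks, 24, at 1289 to 97653 bp from its start. It had 515, 508 and 498 normalized counts in Acis and 2 counts over the 3 A2780 libraries, a ratio of 787 (exact 95% interval of 218 to 6505 for counting error). CBLN2 (ENSG00000141668), a secreted organizer of synapses, had 22, the strongest with a -log10 q of 307, which is the first sequence shown. Its normalized counts were 1986, 1982 and 1992 in Acis and 766, 835 and 795 in A2780, a log2 fold change of 1.31 ± 0.04 (SE, adjusted p = 2.98e-22, edgeR). In both genes the lines did not overlap, but CD36 was near absent from A2780 whereas CBLN2 was expressed in both.

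Of the lncRNA genes with 20 distal Acis-only peaks each, ENSG00000286997 had 83.9, 85.0 and 83.9 normalized counts in Acis and 17.0, 15.6 and 16.8 in A2780, and was called. ENSG00000287145 had 3.86, 5.93 and 1.97 in Acis and 6.59, 4.86 and 17.8 in A2780. Its libraries overlapped, and it was not called (log2 fold change -1.28 ± 0.59 SE, adjusted p = 0.0611, edgeR), so a large number of peaks did not always come with a higher count. Under some of the alternatives in the closing section it was called.

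For A2780, MAB21L1 (ENSG00000180660), a gene of eye development, had 12 distal A2780-only peaks and an A2780-only promoter. Its normalized counts were 641, 707 and 670 in A2780, with 1 count over the 3 Acis libraries, a ratio of 2059 (exact 95% interval of 369 to 81367 for counting error). CACNA2D1-AS1, an antisense lncRNA gene that the strand-specific counting separates from its partner, also had 12 peaks. It had 102, 109 and 106 in A2780 and 2 counts in Acis, a ratio of 161 (exact 95% interval of 44.3 to 1338). LINC00379 had 12 peaks with 0.942, 14.6 and 3.95 in A2780 and no count in Acis, at least 6.58-fold higher in A2780 over a floor of 3 counts for the group. This bound rests largely on 1 library, and without A2780 cisplatin replicate 2 it was 2.47-fold. ENSG00000287409 had 11 peaks and was at least 33.2-fold higher.

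Line-only peaks were often close to each other, and more so in Acis. When line-only peaks at most 20 kb apart were joined, a grouping chosen after the data were seen, 178 clusters of at least 5 Acis-only peaks held 1563 peaks, or 28.2% of all Acis-only peaks. In A2780, 83 clusters held 545 peaks, or 5.10%. With gaps of at most 10 kb the clusters numbered 161 and 33, and with 50 kb 173 and 236, so the order of the numbers of clusters depended on the gap. The shares of peaks in them were 20.9% and 1.84% at 10 kb and 37.2% and 15.8% at 50 kb, higher in Acis at each gap. Of the clustered Acis-only peaks, 87.3% were also listed in untreated Acis cells and 19.2% in untreated A2780 cells. For A2780 these shares were 76.7% and 13.2%.

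Of the 178 Acis clusters, 137 had a tested gene within 50 kb, 73 had a gene called higher in Acis and 30 a gene called lower. Over the 196 genes concerned, 84 (42.9%) were higher against 7.28% of all tested genes, 28 (14.3%) were lower, near the 11.9% of all tested genes, and the median log2 fold change was 0.70. Of the 83 A2780 clusters, 56 had a tested gene, 44 had a gene called lower in Acis and 3 one called higher. Of their 115 genes, 55 (47.8%) were lower and 4 (3.48%) higher, with a median of -0.91. Multi-copy windows made up most of the peaks in 24 A2780 clusters and in 2 Acis clusters. The clusters at chr1:143187019-143267220, chr18:15802821-15895338 and chr7:58766960-58831908 had 14, 13 and 9 A2780-only peaks, all of them multi-copy, with no tested gene.

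The cluster with the most peaks held 26 Acis-only peaks over 106233 bp at chr11:102760546-102866778, in the matrix metalloproteinase genes of chromosome 11, and includes the second sequence shown. Of its peaks, 22 were also listed in untreated Acis cells and 8 in untreated A2780 cells. MMP1, the interstitial collagenase, had 1012, 1001 and 1012 normalized counts in Acis and 43.3, 48.6 and 63.1 in A2780, a log2 fold change of 4.29 ± 0.07 (SE, adjusted p = 1.45e-26, edgeR). MMP12, the macrophage elastase, had 205, 187 and 178 against 10.4, 5.83 and 3.95, a log2 fold change of 4.79. MMP10 (stromelysin 2), with log2 fold change 0.73, lay under the threshold of the fold change. MMP8, the neutrophil collagenase at one side of the cluster, went the other way, with 3.86, 1.98 and 3.95 in Acis and 46.2, 49.6 and 64.1 in A2780 (log2 fold change -3.97). The genes of one cluster thus did not move together.

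The next largest Acis cluster, with 22 peaks at chr2:41599605-41733720, lay near ENSG00000287145, which was not called. Clusters of 16 peaks at chr14:67943508-68059648 and chr3:94360716-94459890 lay near RAD51B and ARMC10P1. Their log2 fold changes were 0.76 and 0.37, and they were not called. Other large Acis clusters lay at CD36 (21 peaks at chr7:80302660-80404276, 20 of them in untreated Acis and 0 in untreated A2780 cells) and at LRRC7, a scaffold protein of synapses (17 peaks at chr1:69947963-70044230). LRRC7 had 442, 456 and 470 normalized counts in Acis and 14.1, 5.83 and 13.8 in A2780. At chr20:34131845-34201588, 15 Acis-only peaks lay near the lncRNA gene ENSG00000287853 and ASIP, the agouti signalling protein. The lncRNA had 382, 376 and 377 in Acis and no count in A2780, at least 391-fold higher, and ASIP was at least 19.6-fold higher. RALY and EIF2S2 near the same cluster had log2 fold changes of 0.15 and 0.12 and were not called.

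Among the A2780 clusters, a pair with 11 and 9 peaks on chromosome 13 lay near NBEA, which had 381, 414 and 407 in A2780 and 13.5, 22.7 and 14.8 in Acis, and near MAB21L1. RGS1, a regulator of G protein signalling, lay near a cluster on chromosome 1 and had 294, 288 and 291 in A2780 and no count in Acis, at least 297-fold higher in A2780.

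Gene lists are read against all tested genes, of which 7.28% were higher and 11.9% lower in Acis with a median log2 fold change of -0.00, 2.04% had an Acis-only and 5.16% an A2780-only promoter, and 11.4% had an Acis-only and 27.9% an A2780-only peak at the promoter or assigned as distal. Among 31 tested collagens and integrins, 7 (22.6%) were higher and 12 (38.7%) lower in Acis, both above the shares of all tested genes, with a median log2 fold change of -0.06. All 5 Acis-only promoters of this list were at collagens, of which COL3A1, COL11A1 and COL12A1 were higher, COL4A5 was lower and COL5A2 was not called. The 3 A2780-only promoters were at COL1A2 and the integrins ITGA4 and ITGA8, all lower in Acis. COL1A2, a chain of type I collagen, had 638, 592 and 568 normalized counts in A2780 and 1 count in Acis, a ratio of 1837 (exact 95% interval of 329 to 72599). Its promoter peak was not listed in untreated A2780 cells, where COL1A2 had a mean of 790 normalized counts. COL1A1, the other chain of type I collagen, had 735, 612 and 655 in A2780 and 16.4, 4.94 and 16.8 in Acis with promoter peaks of both lines. The collagens that differed thus lay in both directions, and not all of them had a promoter peak of the line with more counts alone.

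Of 27 tested mesenchymal genes, 18 (66.7%) were lower in Acis against 11.9% of all tested genes, and 2 (7.41%) higher, near the background of 7.28%. Their median was -2.28, and 6 had an A2780-only and none an Acis-only promoter. TWIST1, a driver of the mesenchymal state, had 533, 577 and 555 normalized counts in A2780 and 3 counts in Acis, a ratio of 566 (exact 95% interval of 193 to 2749). CNN1, a smooth muscle calponin, had 357, 341 and 356 against 1.93, 3.96 and 3.95, and CDH2 (N-cadherin) had 375, 383 and 379 against 47.2, 45.5 and 55.2. The CDH2 promoter peak was weak, with a -log10 q of 6.09. It was not listed in untreated A2780 cells, where CDH2 had a mean of 634 normalized counts. POSTN (periostin), with 1204, 1268 and 1224 in A2780 and 56.9, 50.4 and 44.4 in Acis, had no promoter peak of either line and 1 distal A2780-only peak. Of 9 tested epithelial genes, 2 were higher and 2 lower (22.2% each), and none had a line-only promoter, which 7.21% of all tested genes had.

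Homeobox genes outside the HOX clusters differed in both directions. Of 41 tested, 10 (24.4%) were higher and 16 (39.0%) lower in Acis, against 7.28% and 11.9% of all tested genes, with a median of 0.03. An A2780-only peak, at the promoter or assigned as distal, was found for 20 (48.8%) against 27.9% of all tested genes. DLX5 and DLX6, neighbouring genes of limb and craniofacial development, both had A2780-only promoters. DLX5 had 561, 541 and 577 normalized counts in A2780 and none in Acis, at least 571-fold higher in A2780, and DLX6 had 543, 538 and 506 and 1 count in Acis. MSX1 and ZFHX4 had the same pattern, with log2 fold changes of -8.32 and -10.52. MSX2, with log2 fold change 5.44, and NKX2-5 had Acis-only promoters. Of 19 tested HOX genes, 2 (10.5%) were higher and 10 (52.6%) lower, with a median of -2.01. No promoter peak of either line was found for 13 of the 19, and for 27.5% of all tested genes. Most of their line differences had no line-only promoter peak beside them, which held for all tested genes with a position too. Among these, 112 of 1140 genes called higher had an Acis-only promoter and 325 of 1877 called lower an A2780-only one. HOXB4, with log2 fold change -2.01, had an A2780-only promoter.

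Of 10 tested urogenital lineage factors, 2 were higher and 4 lower (against 7.28% and 11.9% of all tested genes), with a median of -0.02. PAX2, a kidney and Müllerian duct factor, had 871, 768 and 746 normalized counts in A2780 and 1 count in Acis, a ratio of 2438 (exact 95% interval of 437 to 96331), with 8 distal A2780-only peaks. FOXL2, the factor of ovarian granulosa cells, had 227, 231 and 208 in A2780 and none in Acis, at least 227-fold higher in A2780, and an A2780-only promoter. NR2F2, an orphan nuclear receptor, was higher in Acis (log2 fold change 1.54) with 2 distal Acis-only peaks.

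No nucleotide excision repair gene had a line-only promoter, and none of the 32 tested was called by edgeR or DESeq2. Of all tested genes, 7.21% had a line-only promoter, 7.28% were called higher and 11.9% lower. Their median log2 fold change was -0.00, and 28 had promoter peaks of both lines. The absence of calls rests on the threshold of the fold change, since 11 were higher and 12 lower in Acis at an unadjusted p-value under 0.05, and the same numbers at the adjusted p-value alone. ERCC2, a helicase of this pathway, had 738, 774 and 810 normalized counts in Acis and 571, 501 and 525 in A2780 (log2 fold change 0.54 ± 0.05 SE, adjusted p = 7.47e-10, edgeR). Distal peaks were found for more of these genes, with an Acis-only peak for 2 (6.25%, against 11.4% of all tested genes with such a peak at the promoter or distal) and an A2780-only peak for 9 (28.1%, close to the 27.9% of all tested genes). ERCC2 had 2 distal Acis-only peaks and XAB2, with log2 fold change -0.34, 1 distal A2780-only peak.

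Among 29 tested p53 targets, 8 (27.6%) were lower in Acis against 11.9% of all tested genes, and 2 (6.90%) higher, near the background of 7.28%, with a median of -0.36. None had an Acis-only promoter, which is rare among all tested genes too (2.04%). CDKN1A, which encodes the cell cycle inhibitor p21, had 951, 960 and 974 normalized counts in A2780 and 256, 254 and 300 in Acis, a log2 fold change of -1.83 ± 0.05 (SE, adjusted p = 4.64e-22, edgeR), with an A2780-only promoter peak (-log10 q of 29.4), though peaks of both lines lay at some of its transcript starts. TP53INP1, a p53-induced regulator of cell death and autophagy, also had an A2780-only promoter. It had 160, 184 and 199 in A2780 and none in Acis, at least 184-fold higher in A2780. GADD45A and BBC3 were lower in Acis as well, with log2 fold changes of -1.76 and -1.41 and 1 distal A2780-only peak each.

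Of 41 tested genes of platinum transport and detoxification, 2 (4.88%) were higher and 7 (17.1%) lower, near the 7.28% and 11.9% of all tested genes, with a median of -0.10. GPX3, a secreted glutathione peroxidase, was lower with an A2780-only promoter (log2 fold change -6.86). ABCC1, a drug efflux pump, also had an A2780-only promoter, but was higher in Acis by 0.46 on the log2 scale, under the threshold. Of 15 tested genes of MHC class I antigen presentation, 8 (53.3%, against 11.9% of all tested genes) were lower and none higher by edgeR or DESeq2, with 1 higher at an unadjusted p-value under 0.05. Their median was -1.22, and 13 had promoter peaks of both lines. NLRC5, the activator of these genes, had 755, 665 and 670 normalized counts in A2780 and 49.2, 48.5 and 63.1 in Acis, with 1 distal A2780-only peak. HLA-B, with log2 fold change -2.10, has near-identical relatives whose reads may have been divided between them.

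Of 14 tested AP-1 factors, 2 were higher and 5 (35.7%) lower, with a median of -0.31, and of 31 immediate-early genes 2 (6.45%) were higher and 9 (29.0%) lower, with a median of -0.41, against 7.28% higher and 11.9% lower of all tested genes. CCN1, a matrix protein and early response gene, had an A2780-only promoter and had 695, 713 and 717 normalized counts in A2780 and 9.64, 7.91 and 10.9 in Acis. FOS had 832, 826 and 838 against 277, 274 and 262, with promoter peaks of both lines. Of 41 tested Wnt and Notch genes, 5 (12.2%) were higher and 12 (29.3%) lower, with a median of 0.10. MAML3, a coactivator of Notch, had 225, 197 and 228 in A2780 and 1 count in Acis despite an Acis-only promoter peak, which was weak (-log10 q of 7.45), and 3 distal A2780-only peaks.

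Line-only peaks were unevenly spread over chromosomes. On chromosome 13, 350 of 624 A2780 peaks (56.1%) were A2780-only, and on chromosome 18 47.4%, against 27.4% to 37.5% on the others. The median log2 fold change of the 270 tested genes on chromosome 13 was -0.60 in treated and -0.73 in untreated cells. On chromosome 18 it was 0.05. Chromosome 8 had the highest median, 0.24 in treated and 0.19 in untreated cells, with 29.1% of its Acis peaks Acis-only, and chromosome 4 had the highest such share, 30.3%. On chromosome 19, 7.79% of the Acis peaks were Acis-only.

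In windows of 5 Mb with at least 10 tested genes, the medians ranged from -4.78 to 2.01 over 487 windows, with 25 below -0.5 and 14 above 0.5. The lowest was at chr18:30000001-35000000, with 21 genes, where 34 of 43 A2780 peaks were A2780-only. The highest was at chr4:155000001-160000000, with 18 genes, where 60 of 73 Acis peaks were Acis-only. Low medians also ran along chromosome 1, where every window of chr1:85000001-120000000 had a median of -0.57 or lower. The lowest there was -1.67 at chr1:95000001-100000000, where 30 of 39 A2780 peaks were A2780-only. Within this stretch, at chr1:100000001-105000000, 46 of 64 Acis peaks were Acis-only. DNA copy number moves peak calls and RNA counts alike, it was not measured in these data, and its part in these values was not tested. Without chromosomes 8 and 13, 101 of 299 genes with an Acis-only promoter (33.8%) were higher and 290 of 743 with an A2780-only promoter (39.0%) were lower. The stretch of chromosome 1 was kept in these counts.

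**Figure D5:**
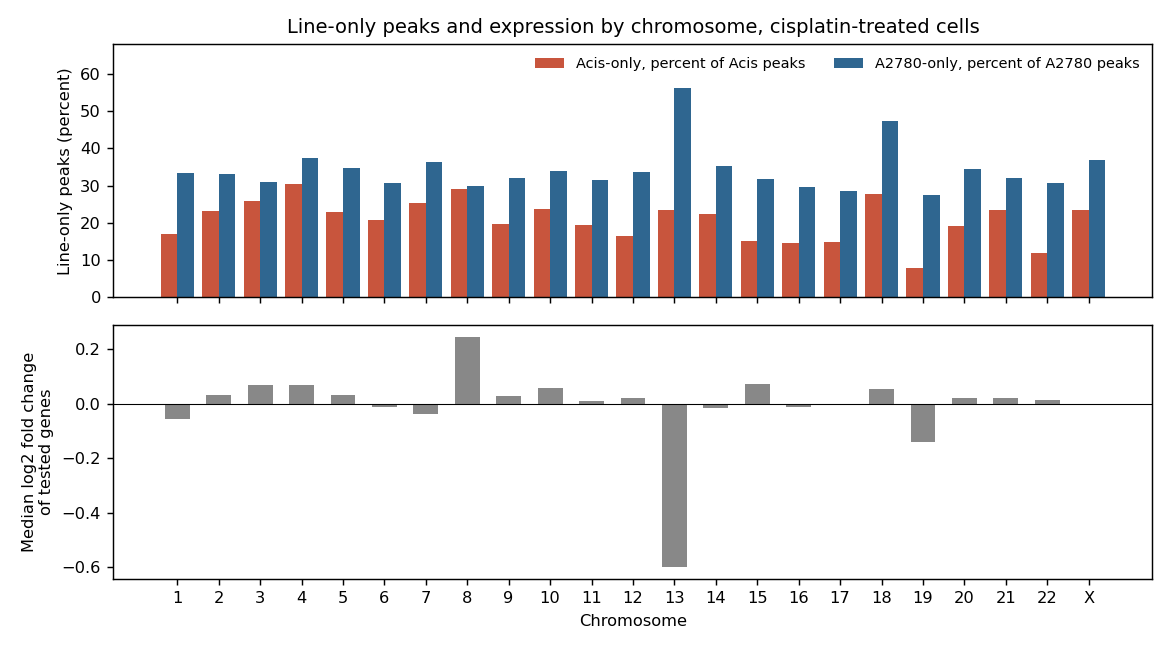
Share of line-only peaks (percent) on each chromosome and the median log2 fold change of its tested genes between Acis cisplatin and A2780 cisplatin libraries. Among whole chromosomes, chromosome 13 stands apart with 56.1% of its A2780 peaks A2780-only and a median of -0.60.

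The promoter classes of treated cells were also compared in untreated cells. In the control libraries, 6.99% of tested genes were higher and 12.2% lower in Acis. Of the 321 tested genes with an Acis-only promoter after cisplatin, 117 were higher there and 21 lower, with a median log2 fold change of 0.48, and of the 811 with an A2780-only promoter 329 were lower and 57 higher, with a median of -0.47. The untreated libraries are separate samples, but the genes are the same, so these counts are no independent test of the peaks. For single genes, a difference between the line effects in treated and untreated cells was tested as an interaction. It was past an adjusted p-value of 0.05 (edgeR) for 18.9% of all tested genes and for 13 of the 76 named genes. COL12A1 had a log2 fold change of 6.98 in treated and 6.25 in untreated cells, with a difference of 0.73 (adjusted p = 0.00113, edgeR), and COL11A1 had 4.25 and 3.58 (adjusted p = 1.17e-06, edgeR). For MMP3, TYRP1, UCP2, MEST, NID2 and CD36 the interaction did not pass the threshold.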

How the data were processed

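RNA-seq and ATAC-seq of A2780 and Acis cells, untreated or after cisplatin, were used. XR-seq was not analysed here. RNA-seq was deposited by the authors as raw counts per gene, made with STAR 2.7.3 alignment, removal of duplicates with Picard and htseq-count (HTSeq 0.11.1) with reverse strand. The table holds genes with at least 10 counts over 12 libraries. For ATAC-seq, the authors trimmed reads with cutadapt 1.15, aligned them with Bowtie2 2.4.1 to hg38 with up to 10 alignments per read, removed duplicates and reads of chromosome Y and mitochondria, and called peaks with MACS2, keeping those with over 50% overlap between all replicates. Each deposited peak has a fold enrichment over background (a ratio) and its -log10 p-value and -log10 q-value as deposited. The deposited score column and the summit offset were taken as the authors gave them.

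Counts were tested in R 4.3.3 with edgeR 4.0.16 (TMM, default filter on low counts, 4 groups over 12 libraries, quasi-likelihood test with Benjamini-Hochberg adjustment over 15760 genes). DESeq2 1.42.0 was an alternative. In simulated counts of 15760 genes for this comparison, 200 of them changed, the test recovered 98.5% of the changed genes, and 0.505% of its calls were false. The changed genes were drawn from genes above a minimum mean count, and all had log2 fold changes past the threshold of 1. These shares thus do not cover genes with few counts or with changes near the threshold. The replicate numbers were not used to pair the samples. Deviations from the group means had correlations of -0.176 to 0.245 between libraries of the same number. Libraries of different numbers were not compared, so these values do not settle whether samples were paired. Gene starts came from GENCODE 44 on hg38, which lacks 109 of the identifiers in the table of 23622 genes. Overlaps, links and motif searches were made with pandas 2.3.3, scipy 1.17.1 and numpy 2.4.6 under Python 3.11.15, and plots with matplotlib 3.10.9. Intervals are exact at 95% and, like the floor of 3 counts, cover counting error only.

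Members, gene lists and tests were chosen with earlier results of these data known. Named genes are the 8 called genes of each line-only promoter class with the strongest peaks, groups that do not overlap and a mean of 100 normalized counts or more in the higher one, the 3 strongest in the opposite direction, the 4 genes of each line with the most distal peaks, and at most 4 members of each of 13 gene lists with a line-only peak and the smallest adjusted p-values. One gene that the rule names is not reported here. Genes of the clusters, list members counted by direction and genes named outside this rule were chosen after their values were seen. Alternatives are given in the closing section, and those on merged replicates, expression level, chromosomes, clusters, control lists and sequence copies were added after the data were seen.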

Additional observations from a re-analysis of the deposited data

Results flagged for a closer look

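The difference between the lines in treated cells differed from that in untreated cells for 13 of the 76 named genes, by the interaction test of edgeR at an adjusted p-value under 0.05, which 18.9% of all tested genes passed. Values are log2 fold changes of Acis against A2780, and adjusted p-values are from edgeR. Among the genes with an Acis-only promoter, the difference was larger after cisplatin for COL12A1 by 0.73 (6.98 against 6.25, adjusted p = 0.00113), for COL11A1 by 0.67 (4.25 against 3.58, adjusted p = 1.17e-06) and for TNFRSF19 by 0.47 (2.66 against 2.20, adjusted p = 1.11e-04). With an A2780-only promoter, the interaction was 0.16 for ABCC1 (0.46 against 0.30, adjusted p = 0.0382) and 0.50 for ERAP2, an aminopeptidase that trims antigens (-1.54 against -2.04, adjusted p = 0.0231).

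The other 8 genes had peaks of both lines or of neither at the gene start. FOS, an AP-1 factor, had the largest interaction, -1.62 (-1.62 against 0.00, adjusted p = 4.51e-09), so the lines differed in treated but not past the threshold in untreated cells. FOSB had -0.88 (-1.20 against -0.32, adjusted p = 8.99e-04). The interaction was -1.37 for ARC, an early response gene (1.16 against 2.53, adjusted p = 2.8e-07), -1.31 for MAFA (1.49 against 2.80, adjusted p = 8.45e-05) and -0.65 for GATA2 (0.73 against 1.38, adjusted p = 9.48e-08). It was -0.44 for HES1, a target of Notch (-1.67 against -1.23, adjusted p = 0.0255), -0.24 for XAB2 (-0.34 against -0.10, adjusted p = 0.0429) and -0.20 for HOXC10 (0.56 against 0.76, adjusted p = 0.0454).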

How the results depend on the processing

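Under the alternatives, 141 values of the counts and medians described kept their direction and stayed close to the reported value, 20 moved and 1 changed sign. A2780-only peaks numbered 4332 and Acis-only peaks 4176 among the 20000 strongest of each list. Without a filter on low counts 3080 genes were lower in Acis. The number of Acis-only promoter genes called higher was 196 by the adjusted p-value alone and 74 with at least 50 counts on average, which tests fewer genes, and that of A2780-only promoter genes called lower was 160 with at least 50 counts. The median log2 fold change of Acis-only promoter genes was 0.39 with a window of 500 bp, 0.61 with all transcript starts and 0.86 without windows that hold a control peak of the other line. That of A2780-only promoter genes was -0.70 with DESeq2, -0.67 without a filter, -0.62 with all transcript starts, -0.55 with a -log10 q of at least 10, -0.35 for protein-coding genes, -0.23 with at least 50 counts, -0.38 without chromosomes 8 and 13 and -0.60 without windows that hold a control peak of the other line. For distal Acis-only peaks the median was 0.15 with a -log10 q of at least 10, 0.14 for single-copy windows and 0.14 with at least 50 counts. For distal A2780-only peaks it was -0.057 with the size factors of DESeq2 and 0.019, with the sign changed, with at least 50 counts. The cause was not tested. With a replicate block, genes called higher in Acis cisplatin numbered 1148 and genes called lower in Acis cisplatin 1882, and among the named genes it changed only the call of ENSG00000287145 (adjusted p = 0.0207, edgeR). With 1 cisplatin library left out at a time, 1172 to 1215 genes were higher and 1926 to 2069 lower, Acis-only promoter genes called higher numbered 113 to 116 with medians of 0.45 to 0.51, A2780-only promoter genes called lower 328 to 341 with medians of -0.49 to -0.42, and the medians for distal peaks were 0.11 to 0.14 and -0.04 to -0.02. Of the 76 named genes, 72 kept their call in all settings. The log2 fold change of LYSMD2 lost its call under 5 settings, with values of 0.88 without A2780 cisplatin replicate 3, 0.96 without Acis cisplatin replicate 1 and just under 1 with DESeq2, its size factors or the 6 cisplatin libraries alone. The log2 fold change of ENSG00000287145 gained a call with the block, with merged replicates, and without A2780 cisplatin replicate 1 (-1.49), A2780 cisplatin replicate 2 (-1.59) or Acis cisplatin replicate 2 (-1.68). The log2 fold change of HOXC4 gained one without A2780 cisplatin replicate 1 (1.03), and the log2 fold change of TJP3 without A2780 cisplatin replicate 2 (-1.07) or Acis cisplatin replicate 2. Depth limits the genes with few counts, and of the reads behind the peak lists the sources used here give only a lower limit.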
